A study of Saccharomyces cerevisiae with 41 samples.

Results

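Expansion segment 6 of the yeast 18S rRNA was taken as the nucleotides at positions 640 to 850 of the deposited table, a choice made by position alone, and it held 211 of the 1800 nucleotides of the molecule. Expansion segments are insertions of eukaryotic rRNA that bacterial rRNA lacks. Expansion segment 6 branches from the central domain of the small subunit and lies largely on the solvent side of the ribosome, where ribosomal proteins cover some of its helices. During assembly the 20S pre-rRNA of the 40S precursor still carries a 3' extension, and assembly factors bind and leave the particle before cleavage gives the mature 18S rRNA.

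All strains were Saccharomyces cerevisiae BY4741 with a tagged protein through which the particles were immunoprecipitated. The 41 samples fell into 17 groups, and the table gives 1 column of averaged drop-off rates for each group. The late 1M7 group comprised nob1-TAP (2 samples, the nuclease that cuts 20S to 18S), rio1-HTP (3, a kinase of late precursors), 80S_like particles (2) from fun12-TAP with GAL::3HA-fap7, and 80S ribosomes (3) from fun12-TAP. Fun12 is the initiation factor eIF5B and Fap7 an ATPase of final maturation. The mid-early 1M7 group comprised the assembly factors enp1-HTP (2), ltv1-HTP (2), rio2-HTP (2) and tsr1-HTP (3). The RNA was 18S in 80S and 20S in the other purifications, by their labels. NAI was applied to Rio1 (1 sample), 80S (2) and Tsr1 (2), and DMS to 80S (3). Untreated columns were the late control (3 samples labelled 18S, from nob1-TAP and fun12-TAP), the mid-early control (4 samples of 20S RNA from the 4 mid-early strains), DMSO-treated 80S (2) and Tsr1 (2), and the control of the DMS set (3, 80S). No control sample is from the Rio1 strain, and Rio1 was placed in the late group from what is known of the kinase. Cultures were grown at 30 °C in glucose or in galactose and raffinose, and the labels do not say which strain had which medium, so the Fap7 level in 80S_like particles is not known from them.

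1M7 and NAI acylate the ribose of flexible nucleotides and DMS methylates unpaired adenines and cytosines, and reverse transcriptase stops at the adduct. The rate of such stops at a nucleotide, minus the rate of the matched control, was put on a common scale and is called reactivity. The divisor is the average of the highest 8% of values that remain when the top 2% of a column are set aside. A nucleotide with a reactivity of 0.3 or more is called reactive, and a negative value lies below the control. Positions name the stop. All 27 DMS-reactive stops of the segment had an adenine (21) or a cytosine (6) immediately 5' of them, as had 218 of 233 in the rest of 18S, so the modified nucleotide is taken as the 5' neighbour of the stop. The tally in the segment was 33 of 36 when columns were scaled by the mean of all positive values, and 27 of 31 against the DMSO-treated 80S column. The columns are the authors' averages with no replicate values and no depth, and every SD below is the spread between the 4 purifications of a stage.

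The whole segment is shown first, with the places of reactive nucleotides for each reagent. A string of a mean over columns can mark a nucleotide through a few of them. The mean 1M7 reactivity at U664 was 0.47, with 2.81 in Enp1, 1.39 in Tsr1 and -0.23 to 0.26 in the other columns. Capitals mark the nucleotide immediately 5' of a reactive stop, from position 640 to position 850, 5' to 3', first for the mean of the 8 1M7 columns (31 capitals), then for the mean of the 3 NAI columns (24) and for DMS on 80S (27).
1M7, mean of 8: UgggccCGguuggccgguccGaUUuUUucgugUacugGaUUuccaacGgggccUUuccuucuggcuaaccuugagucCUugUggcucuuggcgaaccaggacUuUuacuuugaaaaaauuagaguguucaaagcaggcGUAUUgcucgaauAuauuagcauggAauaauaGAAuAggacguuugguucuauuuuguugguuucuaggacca
NAI, mean of 3: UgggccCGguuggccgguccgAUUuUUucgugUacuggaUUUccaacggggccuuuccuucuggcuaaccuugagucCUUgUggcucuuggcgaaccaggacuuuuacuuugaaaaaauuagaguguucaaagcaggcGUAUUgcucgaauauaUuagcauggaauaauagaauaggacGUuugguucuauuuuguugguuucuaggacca
DMS, 80S: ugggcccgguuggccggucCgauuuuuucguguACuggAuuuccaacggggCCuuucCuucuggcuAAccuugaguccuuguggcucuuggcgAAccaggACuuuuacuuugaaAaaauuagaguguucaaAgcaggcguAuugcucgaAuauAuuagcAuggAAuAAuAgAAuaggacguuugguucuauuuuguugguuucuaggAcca

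With 1M7 a smaller share of the segment than of the rest of 18S was reactive in 5 purifications, and a larger share in 80S, Enp1 and Tsr1. Of the 211 nucleotides, 24 were reactive in Nob1 (11.4%), 24 in Rio1 (11.4%), 21 in 80S_like (9.95%) and 46 in 80S (21.8%), against 49 in Enp1 (23.2%), 29 in Ltv1 (13.7%), 25 in Rio2 (11.8%) and 42 in Tsr1 (19.9%). Over the other 1588 nucleotides the share stayed between 15.3% and 18.6% in all 8 columns. The late mean was 13.6% ± 5.49 and the mid-early mean 17.2% ± 5.30 (SD, n = 4 columns each), so the stages differed by less than the spread within them. With NAI 30 nucleotides were reactive in Rio1 (14.2%, against 12.6% of the rest), 34 in 80S (16.1%, against 11.3%) and 25 in Tsr1 (11.8%, against 13.4%), and with DMS 27 in 80S (12.8%, against 14.7%). The segment makes up 11.7% of the length. It held 6.82% of the positive 1M7 reactivity of the molecule in Nob1, 6.40% in Rio1, 6.44% in 80S_like and 16.7% in 80S, against 15.8% in Enp1, 9.61% in Ltv1, 7.07% in Rio2 and 16.2% in Tsr1. This share does not depend on the scaling of a column. The divisor of the scaling was smallest in 80S (0.0213) and Tsr1 (0.0267) and ran to 0.0392 in Rio1.

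**Figure D1:**
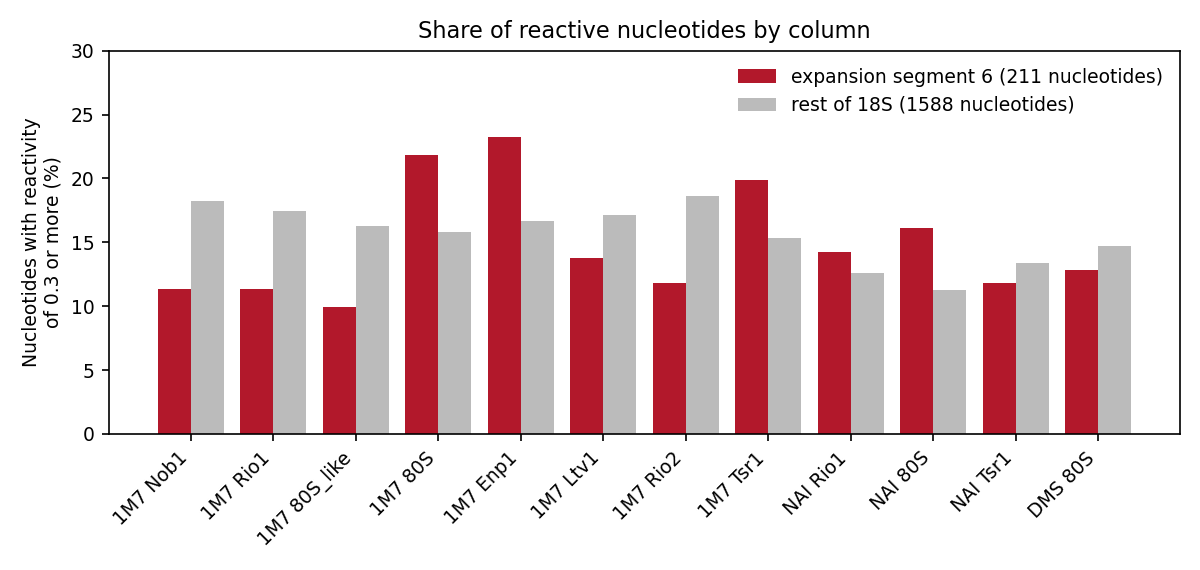
Percent of nucleotides with a reactivity of 0.3 or more in each of the 12 treated columns, for expansion segment 6 (red bars) and for the rest of 18S (grey bars). Each bar is 1 averaged column with no replicate error; in the segment the bars run from 9.95% in 1M7 80S_like to 23.2% in 1M7 Enp1, while the 1M7 bars of the rest stay between 15.3% and 18.6%.

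Most of the segment was quiet with 1M7, as was most of the rest of 18S. In at least 1 of the 8 1M7 columns 83 of the 211 nucleotides were reactive, and 711 of 1588 in the rest. In all 8 columns 128 nucleotides of the segment stayed below 0.3, and 106 were reactive in none of the 12 treated columns. The longest unreactive stretches ran from 822 to 834 (13 nucleotides), from 723 to 733 (11), from 759 to 769 (11) and from 796 to 803 (8). Of the 83 nucleotides that were reactive in at least 1 purification, 28 were reactive in 1 column only. A further 6 were reactive in all 8 (7.23%, against 5.34% of the 711 in the rest), namely U681, U694, U695, U781, U782 and U813. Every stop of these 6 was thus at a uracil, as counted after the values were seen. Their 5' neighbours, taken as the modified nucleotides, were U680, U693, U694, A780, U781 and A812, which are not all uracils.

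**Figure D2:**
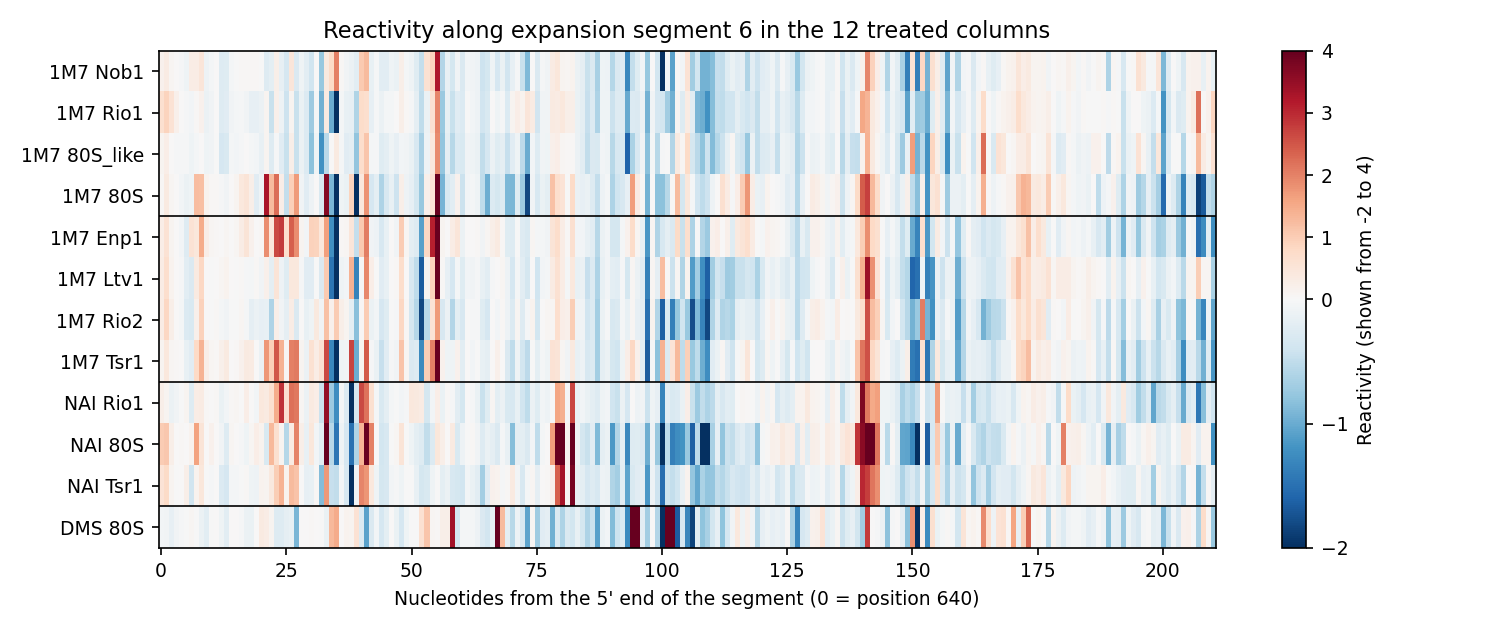
Reactivity at each of the 211 nucleotides (x axis, nucleotides from the 5' end of the segment) in the 12 treated columns (y axis); red is above and blue below the matched control, with the colours ending at -2 and 4. Red bands cross all 1M7 columns at 55 and at 141 to 142 nucleotides (U695, U781 and U782), and the stretch at 21 to 27 (A661 to U667) is mostly red in 80S, Enp1, Tsr1 and NAI Rio1.

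U695 had the highest mean 1M7 reactivity of the segment (4.04 over 8 columns) and was its highest stop in Nob1, 80S, Enp1, Ltv1 and Tsr1. Its reactivity was 3.23 in Nob1, 1.95 in Rio1, 1.88 in 80S_like and 5.35 in 80S, against 7.40 in Enp1, 3.99 in Ltv1, 1.69 in Rio2 and 6.82 in Tsr1. The lowest value was in Rio2 and the highest in Enp1, both mid-early, and the stages overlapped. The late mean was 3.10 ± 1.62 and the mid-early mean 4.97 ± 2.65 (SD, n = 4 each), and the log2 difference was -0.59 with an SE of 0.49 (adjusted p = 0.47 by limma). NAI was low at U695, with 0.25 in Rio1, 0.46 in 80S and -0.01 in Tsr1, and DMS gave 0.04. The drop-off rates behind the 1M7 values were 0.165 in Nob1, 0.116 in Rio1, 0.108 in 80S_like and 0.154 in 80S, above a late control of 0.0399, and 0.268 in Enp1, 0.164 in Ltv1, 0.0847 in Rio2 and 0.213 in Tsr1, above a mid-early control of 0.0311. Its 5' neighbour U694 was reactive in all 8 columns too, from 0.42 in 80S_like to 3.12 in Enp1, and lay below the DMSO rate in all 3 NAI columns (-0.28 to -0.06). U694 and U813 were the nucleotides reactive in all 8 1M7 and in no NAI column, and C682 was the 1 nucleotide reactive in all 3 NAI and in no 1M7 column.

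At U781 and U782, on the 3' side of a predicted hairpin loop, every 1M7 and NAI column was reactive. U781 had 1.96 in Nob1, 1.36 in Rio1, 1.38 in 80S_like and 2.74 in 80S, against 1.85 in Enp1, 3.42 in Ltv1, 2.58 in Rio2 and 2.55 in Tsr1. The stages overlapped at U781, with means of 1.86 ± 0.65 in late and 2.60 ± 0.64 in mid-early particles (SD, n = 4 each). NAI gave 2.10 in Rio1, 4.42 in 80S and 2.77 in Tsr1 there, and DMS on 80S 2.81, so U781 was the 1 nucleotide of the segment reactive in 80S with all 3 reagents, of 77 reactive with any of them. The base modified at this stop would be A780, an adenine, which DMS can methylate. U782 ran from 0.39 in Rio1 and in 80S_like to 1.84 in Ltv1 with 1M7. U681 was the third nucleotide reactive in all 11 columns of the ribose reagents, with 1M7 values between 0.67 (Rio1) and 2.45 (Tsr1) and NAI values of 2.17 in Rio1, 4.06 in 80S and 1.77 in Tsr1.

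**Figure D3:**
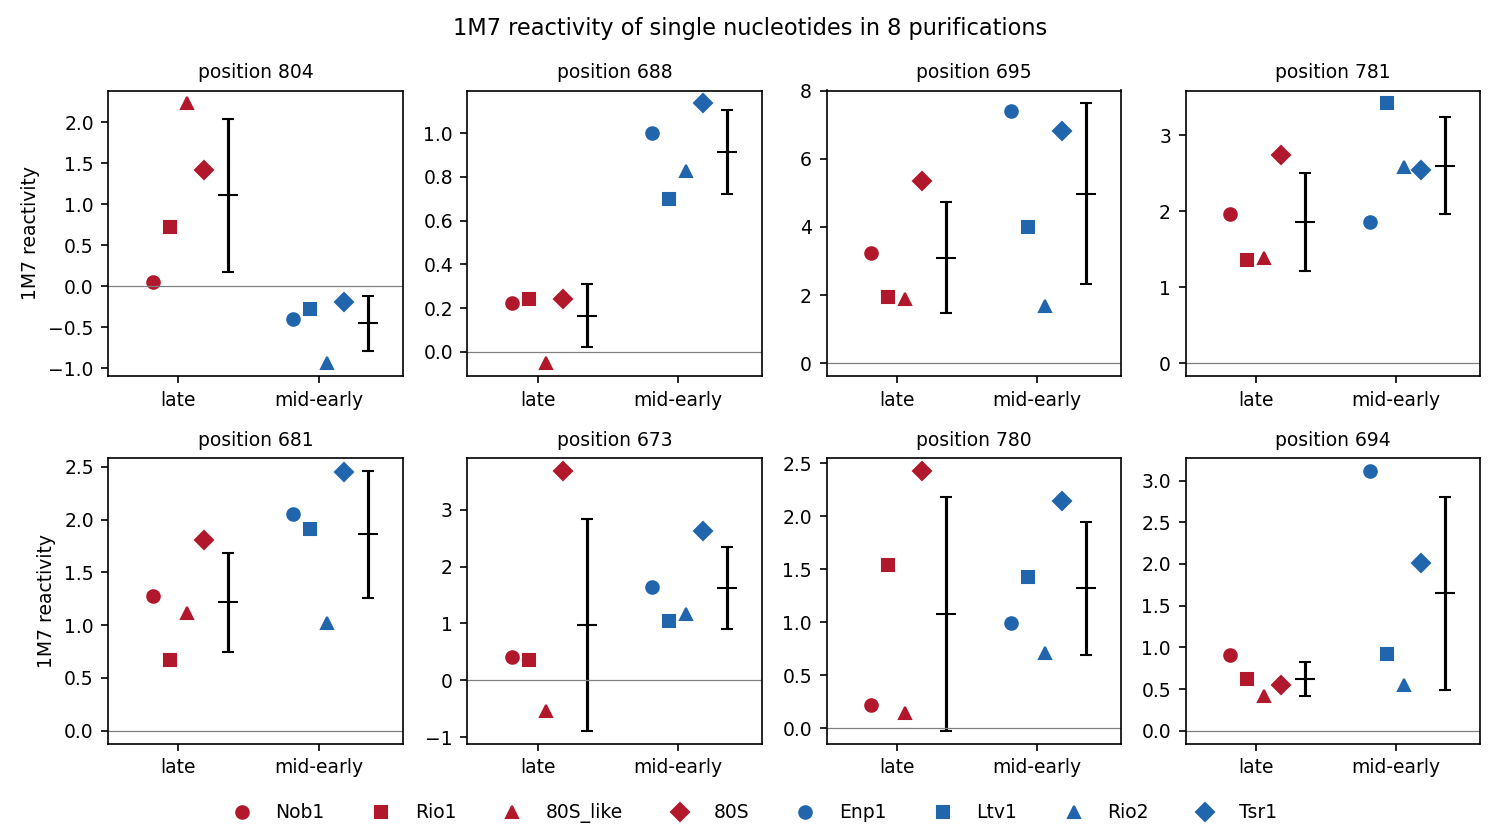
1M7 reactivity of 8 nucleotides in the 4 late (red) and 4 mid-early (blue) columns, with 1 point per column and the mean ± SD of each stage beside them; the y axes differ between panels. The stages separate at positions 804 (late above mid-early) and 688 (late below mid-early), and overlap in the other 6 panels.

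The purifications also parted near the 5' end of the segment, in and around a run of 6 uracils at 662 to 667. The 33 nucleotides at positions 657 to 689 are printed for each 1M7 column. The window was chosen after the values were seen because the columns differ there, so its counts carry no test. The capitals number 6 in Nob1, 3 in Rio1, 3 in 80S_like and 9 in 80S, against 15 in Enp1, 7 in Ltv1, 5 in Rio2 and 14 in Tsr1. The capital C674 in Nob1, 80S_like and Rio2 belongs to the stop U675, where the control rates were 0.144 (late) and 0.184 (mid-early). Capitals again mark the 5' neighbour of a reactive stop.
Nob1: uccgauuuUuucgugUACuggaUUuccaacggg
Rio1: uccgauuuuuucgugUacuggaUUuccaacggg
80S_like: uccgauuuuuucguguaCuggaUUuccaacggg
80S: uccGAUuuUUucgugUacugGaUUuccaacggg
Enp1: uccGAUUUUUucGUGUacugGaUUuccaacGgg
Ltv1: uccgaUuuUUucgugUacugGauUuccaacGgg
Rio2: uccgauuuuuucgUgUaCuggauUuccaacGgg
Tsr1: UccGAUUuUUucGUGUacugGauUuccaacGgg

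At U663 the reactivity was 0.25 in Nob1, 0.20 in Rio1, -0.02 in 80S_like and 2.23 in 80S, against 2.63 in Enp1, 0.51 in Ltv1, 0.25 in Rio2 and 2.49 in Tsr1. The 3 high columns, 80S, Enp1 and Tsr1, came from both stages. A661 was high in the same 3 columns, with 3.27 in 80S, 1.87 in Enp1 and 1.74 in Tsr1, and -0.26 to 0.20 in the other 5 columns. U667 had 1.72 in 80S, 1.86 in Enp1 and 2.09 in Tsr1, 0.41 in Ltv1 and -0.44 to -0.29 in the remaining 4. U666 had 0.95 in 80S, 2.38 in Enp1 and 2.03 in Tsr1, and 0.11 to 0.48 elsewhere.

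The same combination of columns recurred along the segment. Of its 83 nucleotides reactive in any 1M7 column, 6 were reactive in exactly 80S, Enp1 and Tsr1 (7.23%, against 2.53% of 711 in the rest of 18S), at U657, A661, U662, A734, A757 and U795. A further 4 were reactive in these columns and Ltv1 (4.82%, against 0.703%), at G647, U663, U667 and A678. These combinations were picked after their values were seen and carry no test. The averaged columns do not tell whether 80S, Enp1 and Tsr1 were also prepared or sequenced together, and the part of such a batch in this pattern was not tested.

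Structure prediction from sequence alone (RNAfold minimum free energy, -72.3 kcal/mol) paired 144 of the 211 nucleotides and left 67 unpaired, with 5 hairpin loops. The predicted structure makes up 0.194% of the ensemble, so it serves as a description only. In all 11 columns of 1M7 and NAI a larger share was reactive where the 5' neighbour was predicted unpaired, though in some columns the gap was small under other readings. With the state read at the stop itself, the shares in Rio2 were 11.9% at unpaired and 11.8% at paired stops. With 1M7 the shares at unpaired and paired neighbours were 37.9% and 14.6% in 80S, 40.9% and 15.3% in Enp1, and 13.6% and 8.33% in 80S_like, the column with the smallest gap. With NAI they were 31.8% and 8.33% in 80S.

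The 5 predicted loops behaved differently from each other. The uracil loop at 662 to 666 had a mean 1M7 reactivity of -0.01 in Nob1, -0.13 in Rio1, -0.18 in 80S_like and 0.94 in 80S, against 2.1 in Enp1, 0.20 in Ltv1, -0.0012 in Rio2 and 1.61 in Tsr1. NAI in this loop gave 1.87 in Rio1, 0.50 in 80S and 0.99 in Tsr1. Rio1 was therefore near its control in the uracil loop with 1M7 and the highest of the 3 columns with NAI, where the control was the Tsr1 DMSO column. The loop at 776 to 780, 5' of U781, ran from 0.08 in 80S_like to 1.18 in 80S with 1M7. The loop at 718 to 721 reached at most 0.53 with 1M7 (Rio2), and 1.41 in Rio1, 3.85 in 80S and 2.40 in Tsr1 with NAI. Its predicted stem has 2 pairs, and its mean unpaired probability of 0.73 was the lowest of the 5 loops. The adenine loop at 753 to 757 was reactive with 1M7 in 80S (0.66) and Enp1 (0.33), and at or below 0.03 in the other 9 columns of both reagents. The loop at 819 to 823 was at most 0.17 with 1M7.

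**Figure D4:**
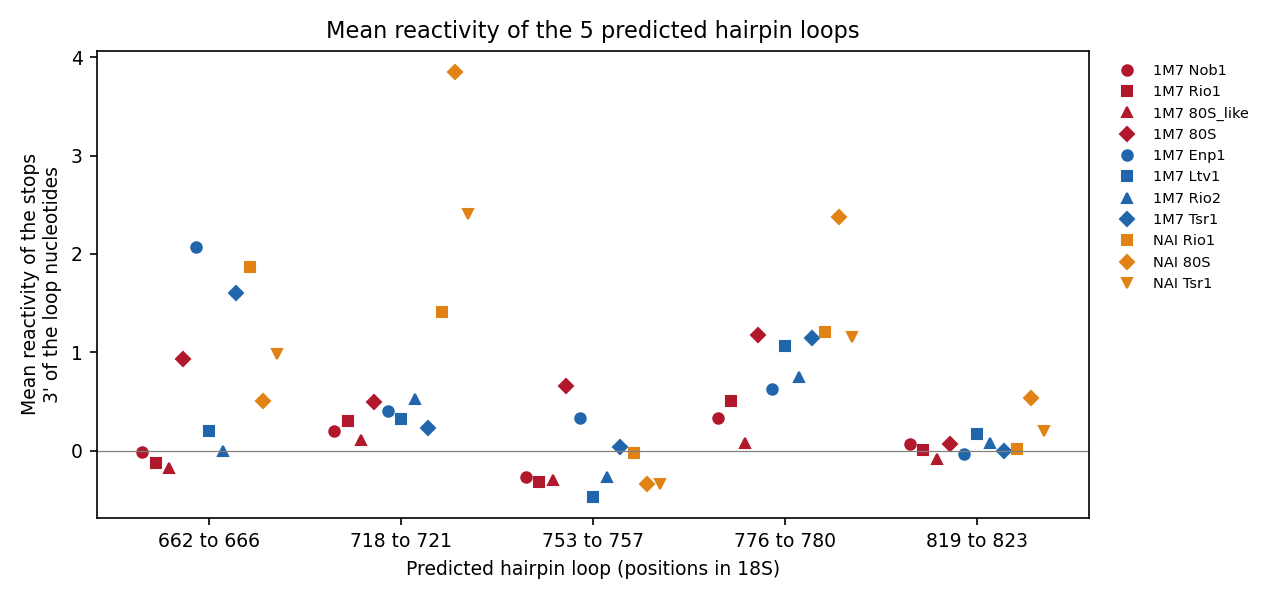
Mean reactivity of the stops 3' of the nucleotides of each predicted hairpin loop (x axis, position in 18S), 1 symbol per column: late 1M7 (red), mid-early 1M7 (blue) and NAI (orange). The uracil loop at 662 to 666 spreads from -0.18 in 80S_like to 2.1 in Enp1 with 1M7, and the loop at 718 to 721 has 1.41 in Rio1, 3.85 in 80S and 2.40 in Tsr1 with NAI.

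The stage comparison asks where flexibility changes between mid-early and late particles. In the segment 47 nucleotides had a mean 1M7 reactivity of at least 0.1 over the 8 columns and were tested, of 504 in the molecule, by limma with Benjamini-Hochberg adjustment over the 504. The other 164 nucleotides did not pass this filter. In late particles 1 of the 47 was called higher (2.13%), and 2.58% of all tested nucleotides were. The fit called 0 of the 47 lower, and 3.57% of all tested nucleotides. At an unadjusted p below 0.05 there were 2 higher and 4 lower in the segment (37 and 66 in the molecule), and limma without the trend also gave 1 and 0. The 4 late columns lay above the 4 mid-early ones without overlap at 1 of the 47, against 3.57% of all tested, and below them at 1, against 10.1%. The log2 difference was negative at 40 of the 47 (85.1%) with a median of -0.59, and at 57.5% of all tested with a median of -0.29. The p-values reflect the spread between purifications and do not cover the error of a control that 4 columns share. By the labels, the late control has the RNA of 80S. The RNA of Nob1, Rio1 and 80S_like is labelled as in the mid-early control. The controls of the stages thus differ in their RNA, and this fit does not separate stage from control.

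The called nucleotide was A804. Its reactivity was 0.05 in Nob1, 0.73 in Rio1, 2.23 in 80S_like and 1.41 in 80S, against -0.40 in Enp1, -0.27 in Ltv1, -0.94 in Rio2 and -0.20 in Tsr1. All late columns were above all mid-early ones, although Nob1 was close to its control. The means were 1.11 ± 0.93 in late and -0.45 ± 0.34 in mid-early particles (SD, n = 4 each), and the log2 difference was 3.04 with an SE of 0.78 (adjusted p = 0.041 by limma). In the treated rates themselves the stages overlapped, with 0.0534 in Nob1, 0.0798 in Rio1, 0.132 in 80S_like and 0.0814 in 80S, against 0.0461 in Enp1, 0.0499 in Ltv1, 0.0292 in Rio2 and 0.0538 in Tsr1. The control rates were 0.0513 (late) and 0.0590 (mid-early). All 4 mid-early values lay below the control and enter the fit at the same floor, so A804 passed the filter through the late columns alone. The mid-early columns thus add no spread of their own to the fit, and the pseudocount sets the floor. The log2 difference was 3.85 with a pseudocount of 0.05 (limma adjusted p = 0.042). With a pseudocount of 0.2 it was 2.29 (limma adjusted p = 0.057). Fitted without the filter, over all nucleotides, A804 had a limma adjusted p of 0.20. Without subtraction the log2 difference was 0.64 (adjusted p = 0.19), and with the mean of both 1M7 controls for all columns 2.73 (adjusted p = 0.096). Leaving out Rio1, Enp1, Ltv1, Rio2 or Tsr1 in turn gave adjusted p-values of 0.12, 0.12, 0.097, 0.12 and 0.12, leaving out Nob1 or 80S gave 0.012 and 0.040, and without 80S_like A804 did not pass the filter. NAI did not show a positive value at A804, with -0.31 in Rio1, -0.61 in 80S and -0.27 in Tsr1, while DMS on 80S gave 1.89.

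Among the 47 tested nucleotides, G688 was the 1 that lay lower in all late columns. It had 0.22 in Nob1, 0.24 in Rio1, -0.05 in 80S_like and 0.24 in 80S, against 1.00 in Enp1, 0.70 in Ltv1, 0.83 in Rio2 and 1.14 in Tsr1. The means were 0.17 ± 0.15 in late and 0.92 ± 0.19 in mid-early particles (SD, n = 4 each). The log2 difference of -2.01 (SE 0.59) missed the threshold with a limma adjusted p of 0.073, and it passed without 80S (-2.16, adjusted p = 0.028). It was -0.65 without subtraction (adjusted p = 0.12) and -1.28 with the mean of both 1M7 controls for all columns (adjusted p = 0.19). The control rates were 0.0201 in the late and 0.0117 in the mid-early control. NAI gave -0.05 in Rio1, 0.51 in 80S and -0.08 in Tsr1 at G688.

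The number of falls rested on the 80S column. Without it 6 of the 44 tested nucleotides of the segment were called lower by limma, at G648, A673, G688, U779, G783 and G815. Without Ltv1 1 of 48 was called lower, at G671. The share of the whole molecule called lower in these fits was not counted, so neither number can be read as particular to the segment. The mean log2 reactivity over the 47 tested nucleotides was -1.69 in Nob1, -1.70 in Rio1, -2.10 in 80S_like and -0.30 in 80S, against -0.38 in Enp1, -1.19 in Ltv1, -1.41 in Rio2 and -0.40 in Tsr1. The late mean was -1.45 ± 0.79 and the mid-early mean -0.85 ± 0.53 (SD, n = 4 each). The difference of -0.60 was smaller than the SD of the late columns, was -0.15 over all 211 nucleotides without the filter, and 80S, a late column, was the highest of all 8.

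In all, 5 pairs of columns were compared nucleotide by nucleotide, with a difference in reactivity of 0.5 or more counted and no test, as each side has 1 column. Both 80S and 80S_like were purified through Fun12 and set against the same control. By the labels, that control has the RNA of 80S and not that of 80S_like. In the segment 40 nucleotides were higher in 80S than in 80S_like (19.0%, against 13.5% of all 1799) and 21 lower (9.95%, against 14.4%). A673 had 3.68 in 80S and -0.55 in 80S_like. U695 had 5.35 in 80S and 1.88 in 80S_like, and A661 had 3.27 in 80S and 0.11 in 80S_like. A757 (1.78 in 80S, -0.76 in 80S_like) and A734 (1.67 in 80S, -0.63 in 80S_like) were below the control in 80S_like, as A673 was. The largest falls were at A847 (-1.87 in 80S and 1.27 in 80S_like), U675 (-2.63 in 80S and 0.37 in 80S_like), U679 (-3.48 in 80S and -0.79 in 80S_like), U790 (-0.51 in 80S and 1.68 in 80S_like) and C848 (-1.67 in 80S and 0.32 in 80S_like). At these 5 the late control rate was 0.0804 to 0.157, and the 80S rate lay below it.

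Between Rio1 and Tsr1 with 1M7 the segment held 20 nucleotides that were higher in Rio1 (9.48%, against 14.6% of all) and 36 that were lower (17.1%, against 12.2%). U695 had 1.95 in Rio1 and 6.82 in Tsr1, and A673 had 0.35 in Rio1 and 2.63 in Tsr1. In the uracil run U667 had -0.44 in Rio1 and 2.09 in Tsr1, and U663 had 0.20 in Rio1 and 2.49 in Tsr1. A678 had -0.16 in Rio1 and 2.72 in Tsr1, but its drop-off rate was 0.282 in Rio1 and 0.305 in Tsr1, close to each other beside controls of 0.289 (late) and 0.233 (mid-early). Of the 5 largest rises 3 lay at the 3' end of the segment, with A847 at 2.20 in Rio1 and -0.53 in Tsr1, A850 at 0.87 in Rio1 and -1.16 in Tsr1, and C848 at 0.04 in Rio1 and -0.97 in Tsr1.

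With NAI, set against the DMSO rates of Tsr1 on both sides, 13 nucleotides were higher in Rio1 (6.16%, against 6.84% of all) and 10 lower (4.74%, against 7.12%). Both shares lay near or below those of the whole molecule. The largest rises were A673 (3.51 in Rio1 and 1.73 in Tsr1), U664 (2.89 in Rio1 and 1.39 in Tsr1), U795 (1.68 in Rio1 and 0.69 in Tsr1), U667 (2.12 in Rio1 and 1.13 in Tsr1) and U666 (2.22 in Rio1 and 1.26 in Tsr1). Of these, U664, U666 and U667 lie in the uracil run, where Rio1 was below Tsr1 with 1M7. The largest falls were G720 (1.41 in Rio1 and 3.34 in Tsr1) and G722 (2.66 in Rio1 and 3.81 in Tsr1). NAI on Rio1 rests on 1 sample. The same 33 nucleotides at 657 to 689 are printed for the NAI columns, with capitals at the 5' neighbours of reactive stops, since the uracil run was marked in all 3 of them, with 14 capitals over the window in Rio1, 10 in 80S and 9 in Tsr1.
NAI Rio1: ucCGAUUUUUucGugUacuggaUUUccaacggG
NAI 80S: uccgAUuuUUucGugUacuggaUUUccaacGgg
NAI Tsr1: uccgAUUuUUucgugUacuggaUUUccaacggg

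Mature 80S and Tsr1 were compared with both reagents. With 1M7, 20 nucleotides were higher in 80S (9.48%, against 8.12% of all) and 23 lower (10.9%, against 9.06%). A804 (1.41 in 80S and -0.20 in Tsr1), A661 (3.27 in 80S and 1.74 in Tsr1) and A757 (1.78 in 80S and 0.48 in Tsr1) led the rises. U679 (-3.48 in 80S and -0.99 in Tsr1), A740 (-0.82 in 80S and 1.40 in Tsr1) and A678 (0.89 in 80S and 2.72 in Tsr1) led the falls, and all 3 are strong stops of untreated RNA. With NAI, 35 were higher in 80S (16.6%, against 9.73% of all) and 27 lower (12.8%, against 12.6%). U782 had 7.66 in 80S and 2.14 in Tsr1, A673 had 4.63 in 80S and 1.73 in Tsr1, and U779 had 2.87 in 80S and 0.25 in Tsr1. U719 had 4.81 in 80S and 2.39 in Tsr1, and U681 had 4.06 in 80S and 1.77 in Tsr1. These 5 largest rises included U779 and U782, which flank A780 and U781. The 5 largest NAI falls were A791, A740, U748, U749 and U664, and at the first 4 of them both columns lay below their DMSO rate.

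NAI also differed from 1M7 in which nucleotides led. The highest stops were A780 in Rio1 (3.74), U782 in 80S (7.66) and G722 in Tsr1 (3.81). G722 had 5.95 with NAI in 80S and 0.75 with 1M7 in 80S, where its 1M7 values over all 8 columns lay between 0.06 (80S_like) and 0.99 (Rio2). In all, 17 nucleotides were reactive in all 3 NAI columns, and the rest of 18S was not counted for this. Among the nucleotides 5' of NAI-reactive stops, uracil made up 52.9% to 76.0% in the segment, where uracil was 34.6% of all such neighbours, and 35.2% to 40.5% in the rest of 18S, where it was 27.5%. Of the 34 NAI-reactive and 46 1M7-reactive nucleotides of 80S, 22 were shared (64.7% of the NAI and 47.8% of the 1M7 nucleotides). Shared nucleotides were not counted in the rest of 18S. Across the 211 nucleotides of 80S the reactivities of both reagents had r = 0.449, and 0.448 in the rest. For Rio1 r was 0.359 in the segment and 0.112 in the rest, and for Tsr1 it was 0.359 in the segment and 0.388 in the rest. These are descriptions across neighbouring nucleotides of 1 RNA, which share sequence and untreated stops.

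**Figure D5:**
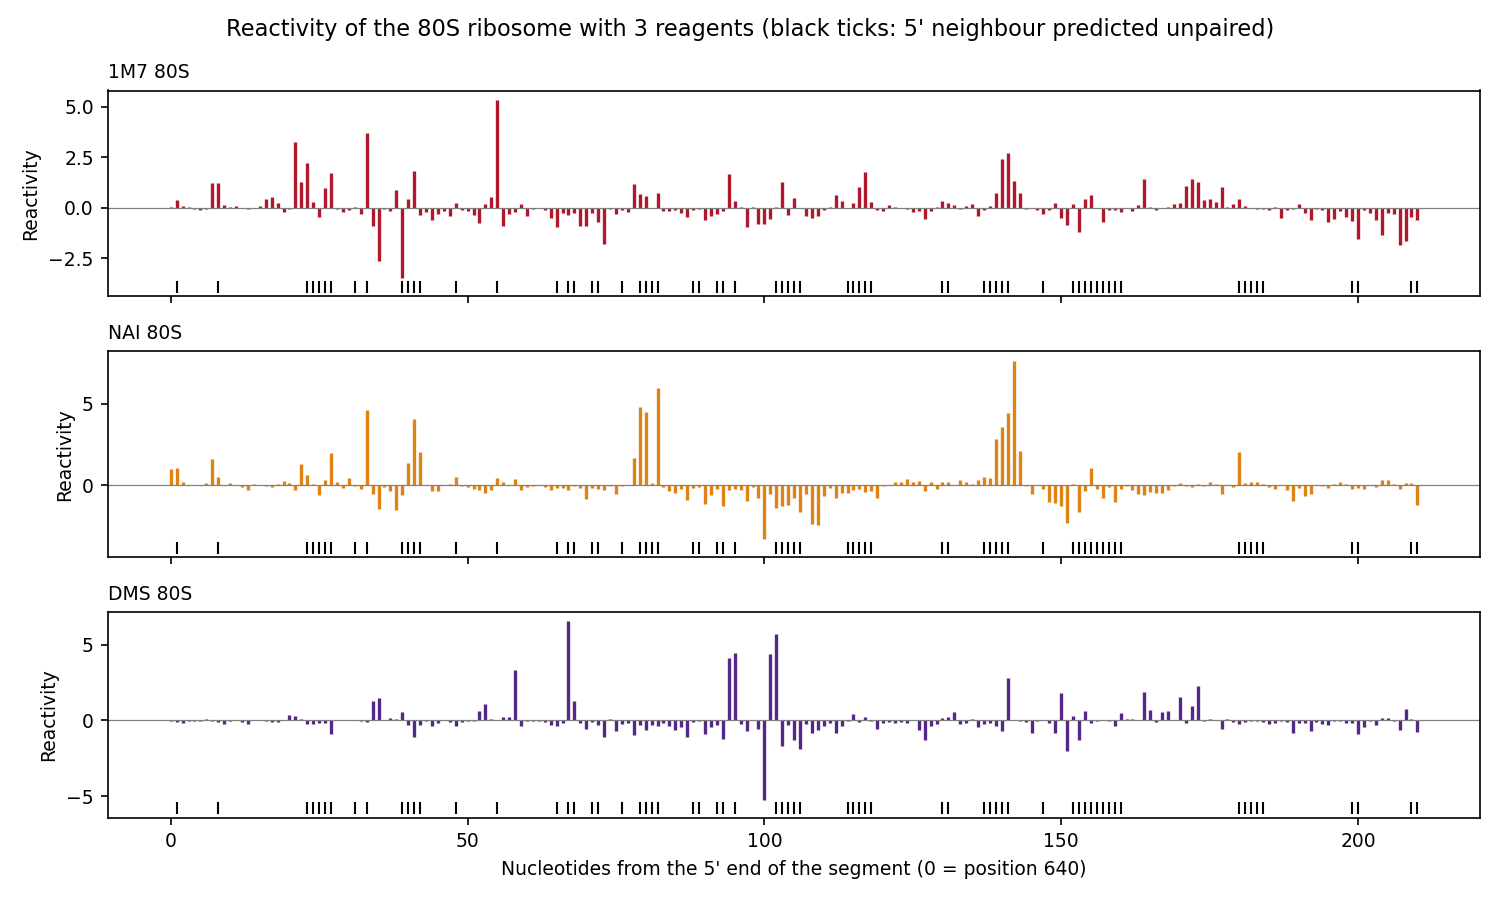
Reactivity of mature 80S ribosomes along the segment with 1M7 (top), NAI (middle) and DMS (bottom), 1 bar per nucleotide on separate y axes, with ticks where the 5' neighbour is predicted unpaired. The tallest bars are U695 with 1M7 (5.35), U782 with NAI (7.66) and A707 with DMS (6.53), and at U781 (141 on the x axis) all 3 reagents are reactive.

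DMS on 80S marked other nucleotides. Of the 44 stops with an adenine 5' of them 21 were reactive (47.7%, against 197 of 438 in the rest), and of the 40 with a cytosine 6 were (15.0%, against 6.82% of 308). The strongest stops were A707 (6.53), U742 (5.68), C735 (4.47), C741 (4.40), A734 (4.10) and U698 (3.36). A707 had a rate of 0.272 with DMS and 0.0341 in its control, and lay below its DMSO rate with NAI in 80S (-0.30) and below its control with 1M7 (-0.35). Of the 27 DMS-reactive nucleotides 7 were reactive with 1M7 in 80S (25.9% of them, 15.2% of the 46) and 2 with NAI (7.41% of them, 5.88% of the 34). Across the segment r was 0.089 between DMS and 1M7 (0.276 in the rest) and 0.066 between DMS and NAI (0.195 in the rest).

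The longest run of successive DMS-reactive adenines in the segment held 8, A799, A803, A804, A806, A807, A809, A811 and A812, with reactivities of 0.502 to 2.30 at the stops 3' of them. The predicted fold pairs 7 of these 8. The run includes A803, the 5' neighbour of the A804 stop. The stage fit called that stop with 1M7, but the call depended on the filter, the control and the columns kept. In contrast, 1 of the 6 adenines at 752 to 757, in and beside the predicted adenine loop, was DMS-reactive (-0.34 to 0.41). Of the predicted unpaired adenines 8 of 16 were DMS-reactive, and of the predicted paired ones 13 of 28 (50.0% and 46.4%).

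Untreated RNA stopped reverse transcriptase slightly more in the segment than elsewhere. The mean rate was 0.0301 to 0.0326 in the 5 untreated columns and 0.0264 to 0.0285 in the rest of 18S. A678 had the highest rate in all 5, from 0.227 to 0.289. A740 differed most between the RNAs, with a mean of 0.227 in the 3 columns of 18S and 0.134 in the 2 columns of 20S. It was followed by A789 (0.116 in 18S and 0.0681 in 20S), U667 (0.0824 in 18S and 0.0394 in 20S) and A791 (0.123 in 18S and 0.0870 in 20S). The 18S columns lay above the 20S columns without overlap at 17 nucleotides (8.06%, against 7.62% of all) and below them at 33 (15.6%, against 21.0%). At such stops a reactivity rests on the difference of high rates. At A740 DMS gave -5.22 in 80S, and 1M7 ran from -2.10 in Nob1 to 1.40 in Tsr1. Of all 211 nucleotides, 52 lay below the control in every 1M7 column and 31 in every treated column, and the rest of 18S was not counted for this. In single 1M7 columns 28.0% to 46.9% of the segment lay above the control, and 39.4% to 50.5% of the rest.

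The segment carries the ribose methylation Am796 and the pseudouridines at 759 and 766, known modifications of yeast 18S. Ribose methylation removes the hydroxyl that 1M7 and NAI acylate. At G797, the stop 3' of Am796, 1M7 lay below the control in all 8 columns, from -1.23 in 80S_like to -0.03 in Rio2, and NAI in all 3 (-0.75 to -0.15). The untreated rate at G797 was 0.0447 in 18S and 0.0377 in 20S on average. At the stops 3' of the pseudouridines 1M7 was negative in all 8 columns too, from -0.31 to -0.04 at A760 and from -0.74 to -0.39 at U767. NAI was not negative throughout there. At A760 it gave 0.13 in Rio1, -0.04 in 80S and -0.10 in Tsr1. At U767 it gave 0.14 in Rio1, -0.33 in 80S and -0.31 in Tsr1. All 3 sites lie within the unreactive stretches at 759 to 769 and 796 to 803.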

How the data were processed

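Values are fractions, the averaged drop-off rates that the authors deposited, 1 column for each of 17 groups of 41 samples; the labels' protocols give immunoprecipitation, random-hexamer priming with SuperScript III and ligation with CircLigase. The submitters' processing notes name Novoalign 2.07. The sources used here give neither the making of rates and averages nor the genome build or depth, so no counting interval is set, and nothing in the labels says that samples were separate cultures. Nucleotide 1 was left out. Reactivities were computed in Python 3.11.15 (numpy 2.4.6, pandas 2.3.3). For the stage comparison, limma 3.58.1 (R 4.3.3, trend option on) was fitted to log2(max(reactivity, 0) + 0.1) of the nucleotides with a mean of at least 0.1, at an adjusted p of 0.05. The fit was also run on simulated data. These had neither a floor at 0 nor a shared control, so they do not check the call of A804. Log2 differences understate changes of low values. Pairing was predicted with ViennaRNA 2.7.2. NAI on Rio1 and Tsr1 was set against DMSO-treated Tsr1, NAI on 80S against DMSO-treated 80S. Sequences are those of the deposited table. The RefSeq table lists RDN18-1 and RDN18-2, each of 1800 nucleotides, and no chromosomal coordinates are given. The members, lists and thresholds were chosen with earlier results of these data known. Named nucleotides were those called or without overlap, the 10 highest 1M7 means, the 5 highest of each NAI column, the 10 highest with DMS, the 5 largest rises and falls of each pair, the 5 highest and 5 most different untreated stops, modified sites and the longest runs; U657, U662, U664, C682, G647, G648, G671, U779, G783, U795, G815 and the adenines of the DMS run and loop were otherwise named after their values were seen. Alternatives were other pseudocounts, filters, scalings, controls and thresholds, leaving out each 1M7 column, and other readings of the predicted fold.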

Additional observations from a re-analysis of the deposited data

Results flagged for a closer look

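In each stage of 4 columns, the column farthest from the others was set against the range of the stage. Of 28 such sets of values 4 stood apart. For a single set chosen without regard to its values, chance gives about 1 in 20. The nucleotides here were picked from these same values and share their columns, so that rate does not apply to the 28 and the flags carry no test. The number of reactive nucleotides in the segment was 46 in 80S, while Nob1, Rio1 and 80S_like had 24, 24 and 21. A661 had a reactivity of 3.27 in 80S, against -0.26 to 0.12 in the other late columns. U663 had 2.23 in 80S, against -0.02 to 0.25 in the other late columns. G688 had -0.052 in 80S_like, against 0.22 to 0.24 in the other late columns. In 3 of the 4 cases the column that stood apart was 80S, the late column whose RNA is labelled 18S and whose scaling divisor was the smallest (0.0213), and the part of either in these values was not tested.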

How the results depend on the processing

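The call of A804 was the result most open to the processing. The number of nucleotides called higher in late particles was 1, and it was 0 with a pseudocount of 0.2, without a filter, with a filter at a mean of 0.3, without subtraction, with 1 common control and on the linear scale. It ranged over 0 to 1 when a column was left out, with A804 called without Nob1 and without 80S only. The number called lower was 0 to 6 when a column was left out (6 without 80S, 1 without Ltv1) and 0 under all other alternatives. The share of the whole molecule called under these alternatives was not counted. The log2 difference of A804 ran from 0.64 (no subtraction) to 4.00 (scaling by the mean of all positive values), with adjusted p-values from 0.012 to 0.20. The mean difference over the tested nucleotides (-0.60) was negative throughout, -0.88 to -0.39 with a column left out, -0.29 on the linear scale, -0.23 without subtraction and -0.15 over all 211 nucleotides without the filter. Pair counts followed the threshold and the background. The 61 nucleotides of 80S against 80S_like became 98 at a difference of 0.3, 26 at 1 and 14 without subtraction. The 56 of Rio1 against Tsr1 with 1M7 became 102, 29 and 14 in the same order, and the 43 of 80S against Tsr1 became 73, 16 and 3, with 27 under 1 common control. With NAI the 62 of 80S against Tsr1 became 20 at 1, 12 without subtraction and 31 with 1 common control, and the 23 of Rio1 against Tsr1 became 57, 4 and 10, and 37 with the DMSO column of 80S for Rio1. Without subtraction the split of higher and lower also moved: 11 higher and 3 lower for 80S against 80S_like (40 and 21 with subtraction), 3 higher and 11 lower for Rio1 against Tsr1 with 1M7 (20 and 36) and 7 higher and 3 lower with NAI (13 and 10), 2 higher and 1 lower for 80S against Tsr1 with 1M7 (20 and 23) and 11 higher and 1 lower with NAI (35 and 27). The 27 DMS stops were 17 at a reactivity of 0.7, 36 with the other scaling and 31 against the DMSO column of 80S. The cause of these changes was not tested, beyond what a stricter threshold sets by itself. The larger share of reactive nucleotides at predicted unpaired neighbours had the same direction in all 11 columns under the 4 readings of the fold, but the shares were close in Rio2 with the state at the stop (11.9% and 11.8%) and in 80S_like with flanks (11.1% and 9.46%). No paired analysis was possible because each group has 1 averaged column that carries no replicate number. Depth is unknown, and an error of a shared control would move all 4 columns of a stage together.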
